A study of Homo sapiens with 12 samples.

Results

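The 6 libraries described here came from HEK293T cells that received dCas9 joined to the enzymatic core of p300, a histone acetyltransferase, and they were chosen by the label that names the transfected gene. They make up 6 of the 12 RNA sequencing libraries of the study. In 3 of them the p300 core was intact (dCas9-p300 core) and in 3 it carried the D1399Y change, which removes acetyltransferase activity (dCas9-p300 D1399Y). The other 6 libraries, used for comparison, came from cells given a protein without a p300 part. In 3 of them the protein was dCas9 alone, the Cas9 protein that binds DNA without cutting it. In the other 3 it was dCas9-VP64, a fusion to a viral activation domain. All 12 libraries came from cells that also received guide RNAs for 4 sites at IL1RN, so no library lacks the guides or the dCas9 part. Untransfected cells were not analysed here. HEK293T cells derive from human embryonic kidney and express the large T antigen of SV40. The plasmids were introduced transiently with Lipofectamine, and the share of cells holding each protein was not analysed here. The comparison asks what a p300 fusion altered whether or not it could acetylate: each group entered with equal weight, as the mean of the core and D1399Y groups minus the mean of the dCas9 and dCas9-VP64 groups.

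p300, encoded by EP300, and its paralog CBP, encoded by CREBBP, are coactivators that transcription factors recruit to enhancers and promoters. Their acetyltransferase domain modifies histones, H3 lysine residues among them, and other proteins, while separate domains bind factors such as CREB, HIF-1 alpha and p53. A p300 part that cannot acetylate may still bind partners, which is the reason to look at the active and the inactive fusion together.

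Total counts ran from 3700113 to 5154627 in the p300 libraries and from 2442960 to 4228316 in the others, a difference in mean that did not exceed the spread (exact permutation test, two-sided, p = 0.517; the smallest p that 6 against 6 allows is 0.00216). Levels are given as CPM, read counts scaled to a common library size after TMM normalization, and a value after ± is an SD over 3 libraries for a level and a standard error for a log2 difference. One library stood apart: dCas9 replicate 3, the shallowest, held 36.8% of the variance in log2 CPM over all tested genes, and D1399Y replicate 2 followed with 11.7%. Replicate 3 of both p300 groups carried the pool label CV42 and the other 10 libraries CV41, so the pool can be set apart from the p300 proteins only through replicates 1 and 2. The labels do not say that replicates came from separate cultures, and p-values then measure the spread between these libraries alone. In bulk RNA, a larger share of cells and more RNA per cell cannot be told apart. HEK293T lineage markers, such as GATA3 and KRT8, were present at a summed 587.0 to 753 CPM in the p300 libraries and 594 to 817 CPM in the others.

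EP300 RNA was the 1 feature that rose with the p300 fusions. Its level was 389, 339 and 449 CPM in core replicates 1, 2 and 3, and 450, 386 and 456 CPM in the D1399Y replicates. It was 124, 146 and 51.9 CPM with dCas9, and 133, 139 and 122 CPM with dCas9-VP64. All 6 p300 libraries lay above all 6 others, and the lowest of the 12 was dCas9 replicate 3. The counts behind these levels ran from 1335 to 1757 in the p300 libraries and from 140 to 609 in the others. The difference was 3.45-fold (95% interval 2.61 to 4.56; log2 1.79 ± 0.19; adjusted p = 0.00301, edgeR quasi-likelihood test with Benjamini-Hochberg adjustment). An exact permutation test of the 12 libraries gave a log2 difference of 1.85 and the smallest p possible, 0.00216 (two-sided). Both p300 plasmids carry the p300 core and the files hold 1 row for EP300, on chromosome 22. Its counts can therefore include reads of the plasmid, so the value checks the labels and does not measure the cell's own gene.

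**Figure D1:**
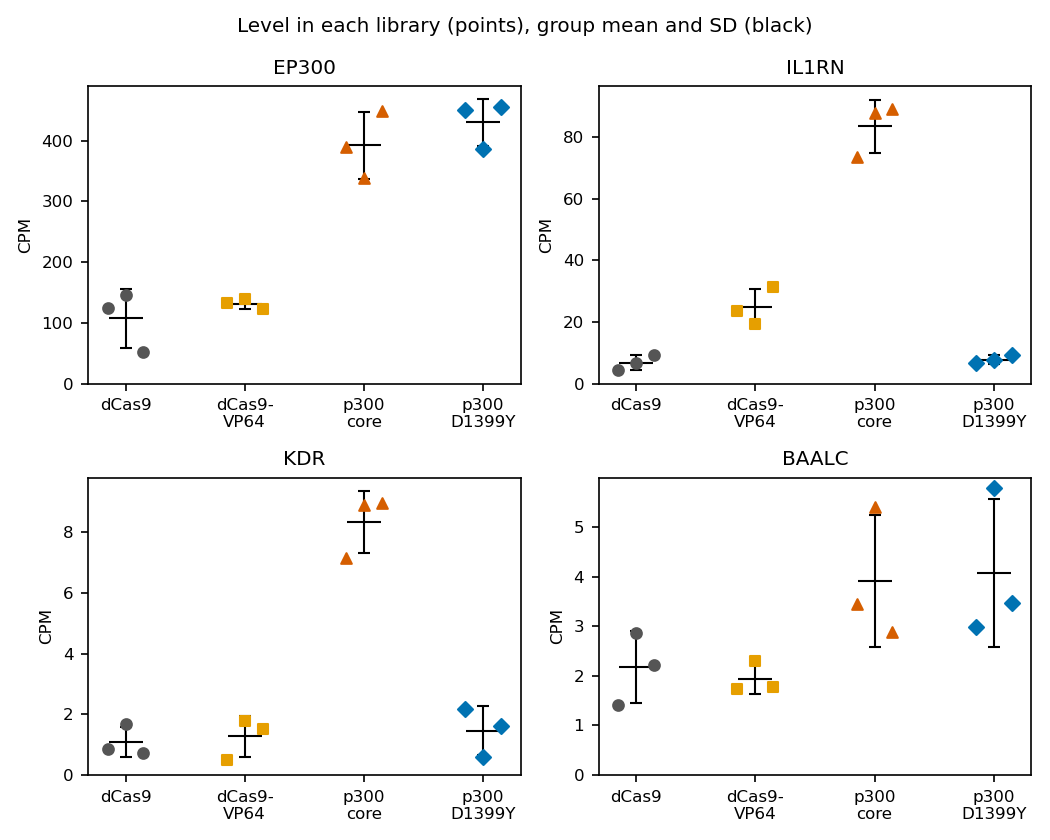
Levels of EP300, IL1RN, KDR and BAALC in CPM (vertical axes, each starting at 0) in the 4 groups of 3 libraries; points are libraries, the black bar is the group mean and the whiskers are the SD. EP300 and BAALC lay higher in all 6 p300 libraries than in the 6 others, while IL1RN and KDR stood high in the 3 core libraries and not with D1399Y.

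The active and the inactive fusion gave like EP300 levels. The core group had a mean of 392 ± 54.7 CPM and the D1399Y group 431 ± 38.9 CPM. Their log2 difference was -0.14 ± 0.26, with a 95% interval from -0.68 to 0.41, so a difference of up to that size was not excluded by these data (adjusted p = 1.0, edgeR). Between the proteins without p300, EP300 stood 0.28 ± 0.26 higher on the log2 scale with dCas9-VP64 than with dCas9. The 4 pairwise differences that average to the main one were 1.86 ± 0.27 for the core and 2.0 ± 0.27 for D1399Y against dCas9, and 1.58 ± 0.26 and 1.71 ± 0.26 against dCas9-VP64. Taken 1 pair at a time they missed the threshold, with adjusted p from 0.0515 to 0.16 in edgeR. All 4 passed in DESeq2, with length and GC offsets, with upper-quartile factors, without a filter and in limma-voom with quality weights. They also passed without dCas9 replicate 3, and without it and either D1399Y replicate 2 or the CV42 libraries. These combined settings were added after seeing the data. With RLE factors and in limma-voom without quality weights, EP300 passed for both fusions against dCas9 and for neither against dCas9-VP64. CREBBP, the paralog that the plasmids do not carry, stood at log2 0.14 ± 0.14, and its group means were 144 ± 44.7 CPM with dCas9, 167 ± 11.2 with dCas9-VP64, 175 ± 33.1 with the core and 168 ± 17.1 with D1399Y. Its 95% interval ran from -0.17 to 0.45.

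The EP300 difference was as clear without the library that stood apart, at log2 1.62 without dCas9 replicate 3 (adjusted p = 6.11e-08, edgeR). Within the 10 CV41 libraries it was 1.71 and missed the threshold (adjusted p = 0.0835). There the exact test on 4 against 6 libraries gave a log2 difference of 1.77 at the smallest p possible, 0.00476. With the pool label as a term it passed (log2 1.71, adjusted p = 0.0288).

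Beyond EP300, no gene passed the test. Of 14613 genes tested, 1 was higher (0.00684%) and 0 were lower with the p300 fusions at an adjusted p under 0.05. DESeq2 placed 2 genes past the threshold, EP300 and IL1RN, and limma-voom placed EP300 alone. At an unadjusted p under 0.05 edgeR placed 179 genes higher and 151 lower, 330 in all (2.26%), against 730.7 under chance alone. That count moved with single libraries: on leaving out 1 it ran from 189, without core replicate 3, to 1524, without dCas9 replicate 2, and the second value lies above the chance number. With a replicate block it was 552, and a count below the chance number does not show that no other gene changed. Below an unadjusted p of 0.001 the main fit placed 4, against 14.6 under chance. The main contrast held 9.97% of the variance in log2 CPM, close to the 9.09% that 1 of 11 degrees of freedom would take if all took the same, and 8.24% without dCas9 replicate 3, against 10.0%. The differences within the 4 groups held 73.9%.

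The intervals show what size of change the 12 libraries could bound. The 95% interval lay wholly within a 2-fold change in either direction for 13980 genes (95.7%). Its median width to each side was 0.24 on the log2 scale for the 3240 genes above 100 CPM, 0.28 for the 6551 genes from 20 to 100 CPM, 0.42 for the 3097 genes from 5 to 20 CPM and 0.60 for the 1725 genes below 5 CPM. Among this last group 74.0% were bounded within 2-fold, and for the others of that group a change of more than 2-fold was not bounded at this depth. In simulated data, 100 genes were changed by each size in both p300 groups. The test recovered 84 of those changed 2-fold and 96 of the 97 tested among those changed 4-fold. With many true changes the cutoff is easier to pass than it was here. Of the unchanged genes in the simulated data 4.99% had an unadjusted p under 0.05, while the share of all genes in the 12 libraries was 2.26% (edgeR). The recovery of such changes in the 12 libraries themselves was not tested.

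**Figure D2:**
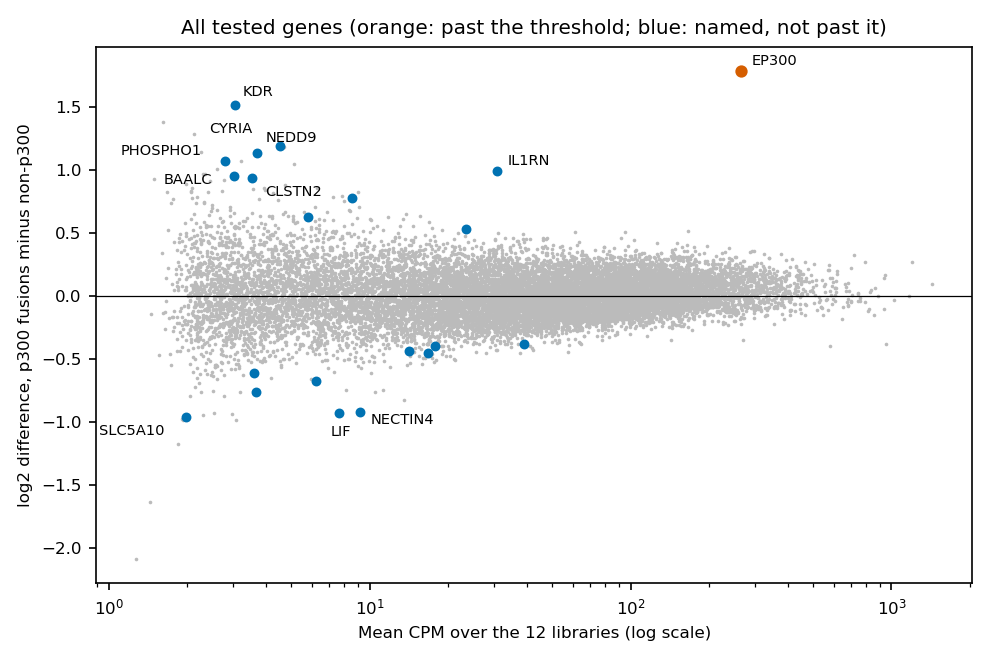
Log2 difference between the p300 fusions and the non-p300 proteins (vertical axis) against mean CPM over the 12 libraries (horizontal log axis) for 14613 genes, with EP300 in orange, the named genes that missed the threshold in blue and the remaining genes in grey. EP300, at 1.79, stands alone among genes above 100 CPM, and the other large differences belong to low genes.

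Several of the genes nearest the threshold stood high with the active core and not with D1399Y, so their place in this comparison rests on 1 of the 2 fusions. IL1RN, the guides' target and the gene of the interleukin 1 receptor antagonist, was the clearest case. Its level was 73.6, 87.9 and 89.2 CPM in the core libraries but 6.51, 7.52 and 9.32 CPM with D1399Y. With dCas9 it was 4.25, 6.70 and 9.26 CPM, and with dCas9-VP64 23.6, 19.3 and 31.3 CPM. The D1399Y libraries overlapped the dCas9 libraries and lay below all of dCas9-VP64. The average over both fusions was log2 1.00 ± 0.18 above the others (adjusted p = 0.696, edgeR; adjusted p = 0.00261, DESeq2). The difference between core and D1399Y was 3.42 ± 0.25 (adjusted p = 2.96e-05, edgeR), and it was the 1 gene of 14613 to pass there (0.00684%). IL1RN was likewise the 1 gene past the threshold for the core against dCas9 (0.00684%) and against dCas9-VP64 (0.00684%). On leaving out 1 library, the call against dCas9-VP64 held in 6 of 12 fits; it was lost, with 0 genes past the threshold, without any 1 of the 3 core replicates, dCas9-VP64 replicate 1, dCas9-VP64 replicate 2 or D1399Y replicate 2. It was also lost within the CV41 libraries and with the pool label as a term. For D1399Y 0 genes passed against either protein, with 861 genes at an unadjusted p under 0.05 against dCas9 and 97 against dCas9-VP64. The 861 ran from 203 without D1399Y replicate 2 to 3068 without dCas9 replicate 2, and the 97 from 61 without dCas9-VP64 replicate 2 to 329 without dCas9 replicate 3. DESeq2 placed EP300 past the threshold against dCas9, and EP300 and IL1RN against dCas9-VP64. Without dCas9 replicate 3 edgeR called these same genes, and without dCas9 replicate 2 it called EP300 against dCas9.

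KDR, which encodes the endothelial growth factor receptor VEGFR2, had the same shape at a far lower level. It stood at 7.15, 8.89 and 8.95 CPM in the core libraries, from 27 to 46 counts each. In the 9 other libraries it lay between 0.496 and 2.17 CPM, from 2 to 8 counts each. All 3 core libraries exceeded the 9 others, and the D1399Y libraries overlapped dCas9 and dCas9-VP64. Its main log2 difference was 1.52 ± 0.35 (adjusted p = 0.874, edgeR) and its difference between core and D1399Y 2.49 ± 0.40 (adjusted p = 0.171). In the main fit KDR passed for none of the pairs with the core. Without dCas9 replicate 3 it passed for core against D1399Y in edgeR, as it did for that pair in DESeq2 and in limma-voom with quality weights. For core against dCas9 it passed in DESeq2, with a 1 CPM filter, without a filter and on single RefSeq rows. For core against dCas9-VP64 it passed in DESeq2, in limma-voom with quality weights, with length and GC offsets and without a filter. It also passed for that pair on single RefSeq rows and without dCas9 replicate 3, with or without D1399Y replicate 2.

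The stretch of 250 bases before the annotated start is shown for IL1RN, the gene under the guides, and for KDR, the gene of largest difference among the leading genes after EP300. Both are RefSeq sequences of GRCh38.p14, on the gene's strand, at chr2:113117721-113117970 (plus) for IL1RN and chr4:55125596-55125845 (minus) for KDR; the counts rest on hg19, and the guide sequences are not given here. Capitals mark GGGCGG, the letters of an Sp1 site, on either strand.
IL1RN: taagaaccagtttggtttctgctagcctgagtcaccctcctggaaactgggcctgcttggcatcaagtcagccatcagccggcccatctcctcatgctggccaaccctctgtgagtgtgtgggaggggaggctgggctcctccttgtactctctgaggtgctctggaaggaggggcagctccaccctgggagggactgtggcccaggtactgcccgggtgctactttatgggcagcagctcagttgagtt
KDR: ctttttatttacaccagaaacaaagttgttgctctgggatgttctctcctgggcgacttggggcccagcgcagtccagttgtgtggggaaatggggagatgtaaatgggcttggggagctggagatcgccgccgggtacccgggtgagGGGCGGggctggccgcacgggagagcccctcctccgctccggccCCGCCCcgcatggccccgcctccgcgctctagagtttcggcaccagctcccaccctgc

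KDR held 2 matches to GGGCGG and IL1RN 0; 67.0% of the 11271 tested genes with a promoter in the table held at least 1. Neither held TATAAA (5.31% of promoters) or the full CREB site TGACGTCA (2.86%), searched on both strands. Their GC content was 59.6% for IL1RN and 65.2% for KDR, against a median of 65.2%. Of the 21 leading genes (EP300, IL1RN and the 19 others of smallest p), 13 had a promoter in the table, and 8 of these held GGGCGG.

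NFASC, CYRIA and PADI2 also stood highest in the 3 core libraries. NFASC, the gene of the adhesion protein neurofascin, lay between 13.7 and 17.1 CPM in the core libraries, between 5.86 and 8.69 CPM with D1399Y and between 4.33 and 7.69 CPM in the 6 others (main log2 0.78 ± 0.19; core against D1399Y 1.13 ± 0.26). CYRIA, a regulator of Rac1 signalling to actin, lay between 8.95 and 9.80 CPM with the core, between 2.40 and 5.78 CPM with D1399Y and between 0.85 and 3.47 CPM in the others (main log2 1.20 ± 0.28; core against D1399Y 1.38 ± 0.35). PADI2, a peptidylarginine deiminase that converts arginine to citrulline in proteins, histones among them, lay between 31.0 and 37.9 CPM with the core, between 19.4 and 23.4 CPM with D1399Y and between 13.5 and 24.4 CPM in the others (main log2 0.54 ± 0.14). For each of these 3 genes the adjusted p of the main difference was 0.874, and none passed between core and D1399Y (edgeR).

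BAALC came nearest to a gene placed alike by both fusions. BAALC, a gene known from brain and from acute leukemia, stood at 3.44, 5.41 and 2.89 CPM with the core and 2.99, 5.78 and 3.46 CPM with D1399Y. It stood at 1.42, 2.87 and 2.22 CPM with dCas9 and 1.74, 2.29 and 1.78 CPM with dCas9-VP64. The 6 p300 libraries lay above the 6 others, by a narrow margin: the lowest p300 library had 2.89 CPM and the highest other library 2.87. The log2 difference was 0.95 ± 0.27 (adjusted p = 0.874, edgeR), and that between core and D1399Y was -0.02 ± 0.34 with a 95% interval from -0.76 to 0.72. These levels rest on 5 to 28 counts a library.

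The groups of 6 did not overlap for 7 genes (0.0479% of those tested), 5 higher (0.0342%) and 2 lower (0.0137%) with the p300 fusions. If every split of the 12 libraries into 6 and 6 were equally likely, a gene would separate them in either direction with a probability of 0.00216. The share of 0.0479% lies below that, so a lack of overlap alone does not set a gene apart from chance. They were EP300, BAALC, MEGF11, PIR-FIGF and AFAP1 on the higher side and EMID1 and RBM22 on the lower, and EP300 was the 1 gene of the 7 with a log2 difference of 1 or more. MEGF11, AFAP1, PIR-FIGF and RBM22 are named for this lack of overlap, after their values were seen. MEGF11, a cell surface protein with EGF-like repeats, lay between 16.8 and 21.6 CPM against 13.3 to 16.7 CPM (log2 0.40 ± 0.12). AFAP1, an actin filament binding protein, lay between 50.8 and 64.1 CPM against 17.0 to 49.6 CPM, the 17.0 in dCas9 replicate 3 (log2 0.47 ± 0.18). PIR-FIGF, a readthrough transcript whose reads cannot be told apart from those of its 2 parent genes, stood at log2 0.51 ± 0.18. RBM22, a splicing factor, lay between 80.4 and 90.3 CPM against 91.4 to 100 CPM (log2 -0.15 ± 0.08). EMID1, an extracellular matrix protein, lay between 12 and 15.5 CPM against 15.8 to 27.8 CPM (log2 -0.45 ± 0.15). Each of these 5 had an adjusted p of 0.874 (edgeR).

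The other leading genes on the higher side were CHRNA4, PHOSPHO1, CLSTN2 and NEDD9, each at an adjusted p of 0.874. CHRNA4, a nicotinic acetylcholine receptor subunit, stood at means of 7.56 ± 1.33 CPM with the core and 6.34 ± 0.342 with D1399Y, against 5.81 ± 0.461 with dCas9 and 3.45 ± 0.13 with dCas9-VP64. Its lowest group was thus dCas9-VP64, and dCas9 replicate 3, at 6.30 CPM, lay within the range of the p300 libraries (log2 0.63 ± 0.16). PHOSPHO1, a phosphatase of bone mineralization, stood at 4.47 ± 1.31 and 3.01 ± 0.707 CPM with core and D1399Y against 1.47 ± 0.977 and 2.18 ± 0.491 CPM with dCas9 and dCas9-VP64 (log2 1.07 ± 0.29). For CLSTN2, the synaptic adhesion protein calsyntenin 2, the log2 difference was 0.94 ± 0.27. For NEDD9, a scaffold protein of integrin signalling, it was 1.14 ± 0.32, and 1 of the 3 D1399Y libraries, at 5.97 CPM, lay beside the core libraries while the other two stood at 2.31 and 2.13 CPM.

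On the lower side the leading genes were LIF, TNFRSF10B-AS1, RAB4B-EGLN2, SLC5A10, SNORD3C, NECTIN4, HIKESHI, HSPBAP1, LYZ and EMID1, all at an adjusted p of 0.874 (edgeR). LIF, the cytokine leukemia inhibitory factor, stood at 6.62, 4.83 and 1.32 CPM with the core and 7.06, 5.20 and 6.65 CPM with D1399Y. It stood at 10.8, 6.94 and 9.63 CPM with dCas9 and 10.4, 10.4 and 12 CPM with dCas9-VP64. D1399Y replicate 1, at 7.06 CPM, overlapped dCas9 replicate 2, and the other 5 p300 libraries lay below all others (log2 -0.93 ± 0.26). SLC5A10, a sodium and sugar cotransporter, was lowest with D1399Y, at 0.915 ± 0.132 CPM, from 3 to 4 counts a library, against 1.83 ± 0.28 CPM with the core (main log2 -0.95 ± 0.28). LYZ, the gene of lysozyme, stood between 1.86 and 2.89 CPM with D1399Y, between 3.28 and 3.95 CPM with the core and between 3.31 and 5.56 CPM in the others (log2 -0.61 ± 0.20). NECTIN4, an adhesion protein, stood at log2 -0.92 ± 0.29, HIKESHI, which carries HSP70 into the nucleus, at -0.38 ± 0.13, and HSPBAP1 at -0.39 ± 0.13.

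Some of these lower features share reads with others. RAB4B-EGLN2 is a readthrough transcript of RAB4B and EGLN2 (log2 -0.44 ± 0.13), and EGLN2, an oxygen-sensing prolyl hydroxylase, stood at -0.51 ± 0.19. SNORD3C is 1 of several near-identical copies of the U3 small nucleolar RNA (log2 -0.67 ± 0.20), and its copy SNORD3A stood at -0.57 ± 0.23. TNFRSF10B-AS1 lies antisense to TNFRSF10B, and without a stated strand setting the reads of a gene and its antisense partner cannot be told apart (log2 -0.76 ± 0.22).

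**Figure D3:**
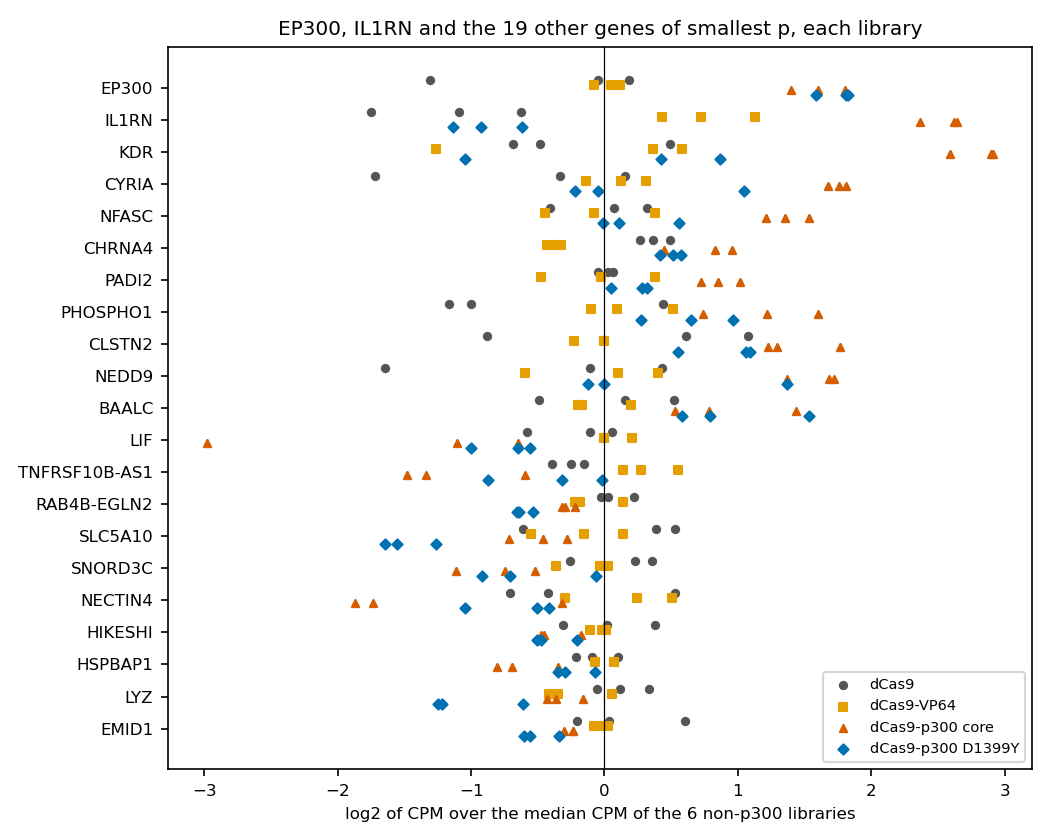
Level of EP300, IL1RN and the 19 other genes of smallest unadjusted p, 1 row a gene, as log2 of each library's CPM over the median CPM of the 6 non-p300 libraries (horizontal axis); each point is a library, with colour and shape for the 4 groups. Core and D1399Y points lie together for EP300 and BAALC, and the core points stand apart to the right for IL1RN, KDR, CYRIA and NFASC.

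Gene lists were read by their members' counts and median, without a test of the list. Over all genes tested, 51.8% stood above 0 and the median log2 difference was 0.008. EP300 is in none of the 30 lists, and 0 of their members passed the test. Ranges of a list's median below are over 28 alternative settings.

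The enzymes and readers of histone acetylation, p300's own setting, had list medians from -0.07 to 0.14. Among other acetyltransferases 9 of 13 stood above 0, with a median of 0.14 that ranged from -0.02, without both dCas9 replicate 3 and D1399Y replicate 2, to 0.26. NCOA2, a nuclear receptor coactivator, was at 0.36 ± 0.29, and KAT8 and KAT5, catalytic subunits of the MSL and TIP60 complexes, were at -0.19 ± 0.12 and -0.16 ± 0.11. dCas9 replicate 3 had a median log2 ratio of -0.82 for this list relative to the mean of the 12 libraries, and without it 7 of 13 stood above 0 at a median of 0.01. Among deacetylases 4 of 16 stood above 0, with a median of -0.07 (range -0.10 to 0.01, the last with length and GC offsets), HDAC10 at -0.60 ± 0.22, SIRT6 at -0.27 ± 0.15 and HDAC9 at 0.41 ± 0.31. Bromodomain readers had 11 of 17 above 0 and a median of 0.05 (range -0.06, with length and GC offsets, to 0.10), with BRD2 at -0.15 ± 0.10 and TRIM33 at 0.21 ± 0.15.

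Known binding partners of p300 and the complexes that act beside it had list medians from -0.04 to 0.05. The 26 tested partners had 15 above 0 and a median of 0.05 (range 0.00 to 0.10). They ran from CITED1 at -0.23 to MAML2 at 0.35, with the transcription factor MEF2C at 0.26 ± 0.18. BAF chromatin remodelling subunits had 13 of 23 above 0 and a median of 0.01 (range -0.01 to 0.03), and the outlying member was DPF3, at 0.82 ± 0.26 (adjusted p = 0.874, edgeR). Mediator subunits had 11 of 30 above 0 and a median of -0.04 (range -0.07 to 0.00), with MED30 at -0.32 ± 0.14 and MED12 at 0.32 ± 0.18.

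Targets of factors that use p300 or CBP as coactivators gave no called member. Of 22 CREB and immediate early genes 9 lay above 0, around a median of -0.06, which was 0.06 without dCas9 replicate 1; JUNB, an AP-1 subunit, stood at -0.32 ± 0.16 and IER3 at -0.30 ± 0.25. Hypoxia targets had 4 of 16 above 0 and a median of -0.06, which was likewise 0.06 without dCas9 replicate 1, with the glycolytic enzyme genes ENO1 at -0.15 ± 0.11 and LDHA at -0.11 ± 0.12. The 9 tested NF-kB targets centred on -0.01 (range -0.07 to 0.08, the last without dCas9-VP64 replicate 3), with NFKBIE, an inhibitor of NF-kB, at -0.37 ± 0.17 and TNFAIP3 at 0.31 ± 0.20. Notch targets had 2 of 8 above 0 and a median of -0.11 (range -0.16 to 0.03, the last with length and GC offsets), with HES5 at -0.62 ± 0.43 and NOTCH3 at 0.19 ± 0.15. SMAD targets had 6 of 10 above 0 and a median of 0.08 (range -0.06, in limma-voom with quality weights, to 0.15), with LTBP2, which binds microfibrils, at 0.42 ± 0.18 and BAMBI, a decoy receptor, at -0.26 ± 0.12. Of 15 interferon-stimulated genes 9 lay above 0, around a median of 0.04 (range -0.01, in limma-voom with quality weights, to 0.11), with OAS3, an antiviral enzyme, at 0.65 ± 0.24 and ISG15 at -0.46 ± 0.29.

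The lists of p53 and WNT targets kept the sign of their median in all 28 alternatives, which did not set them apart. The proteasome, heat shock, proliferation and epithelial medians also stayed below 0, and the fibroblast median stayed above 0 (range 0.02 to 0.34). Of 18 p53 targets 4 stood above 0, with a median of -0.13 (range -0.17 to -0.06); p53 is bound by the large T antigen in these cells. TP53I3, an oxidoreductase, stood at -0.76 ± 0.35, BBC3, the apoptosis gene PUMA, at -0.37 ± 0.16 and DDB2, a DNA damage sensor, at -0.29 ± 0.11. Without dCas9 replicate 3, 1 of 18 stood above 0, at a median of -0.14. Of 9 WNT targets 8 stood above 0, with a median of 0.25 (range 0.05 to 0.30). NKD1, a feedback inhibitor of the pathway, stood at 0.56 ± 0.23, ZNRF3, a ubiquitin ligase that removes its receptors, at 0.29 ± 0.12 and TCF7, a transcription factor, at 0.25 ± 0.11. In dCas9 replicate 3 the WNT list stood at -0.74 relative to the mean of the 12 libraries, and without that library 7 of 9 stood above 0 at a median of 0.16. Over all genes 0 of these passed (smallest adjusted p = 0.874, edgeR).

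The setting of IL1RN itself showed no called gene. Of 12 tested genes of interleukin 1 receptor signalling 8 stood above 0, with a median of 0.09 (range -0.02, without dCas9 replicate 3 and D1399Y replicate 2, to 0.15), IL1R1, the receptor that the IL1RN product blocks, at 0.69 ± 0.32 and the kinase IRAK4 at 0.25 ± 0.11. IL1A and IL1B had 2 counts each over the 12 libraries. Of the genes around IL1RN on chromosome 2, 8 were tested, with a median of 0.10 (range -0.05, without those 2 libraries, to 0.16), CKAP2L at 0.19 ± 0.16 and CHCHD5 at -0.23 ± 0.18. In the VEGF family, to which KDR belongs as a receptor, 7 of 9 stood above 0, KDR included, with a median of 0.09 (range -0.01, in the CV41 libraries, to 0.13). The 2 below 0 were the ligand genes PGF, at -0.48 ± 0.21, and VEGFB, at -0.27 ± 0.15.

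Genes that answer protein load and protein synthesis lay slightly below 0, and their levels moved with the library that stood apart. All 25 proteasome genes lay below 0, with a median of -0.13 (range -0.19 to -0.03), PSMB5 at -0.23 ± 0.13 and PSMA6 at -0.22 ± 0.09. All 35 cytosolic ribosomal protein genes lay below 0 as well, with a median of -0.12, RPL13 at -0.18 ± 0.13 among them, and with length and GC offsets 27 of 34 lay above 0 at a median of 0.05. In dCas9 replicate 3 these lists stood at 0.39 and 0.47 relative to the mean of the 12 libraries, the highest of any library. Without it the medians were -0.04 and -0.03, with 2 of 25 and 1 of 35 members above 0. Of 15 heat shock genes 1 lay above 0, CRYAB at 0.61, the largest difference of the list. Their median was -0.10 (range -0.17 to -0.04), with the mitochondrial chaperonin gene HSPE1 lowest at -0.28 ± 0.15 and the regulator HSF1 at -0.19 ± 0.13. Of 19 genes of the unfolded protein response 7 lay above 0, around a median of -0.05 (range -0.08 to 0.01, the last without dCas9-VP64 replicate 2), with PPP1R15A, which directs dephosphorylation of eIF2 alpha, at -0.38 ± 0.13 and SDF2L1 at -0.37 ± 0.22. The part of dCas9 replicate 3 in the heat shock and unfolded protein values was not tested beyond the medians without it, -0.06 and 0.00.

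**Figure D4:**
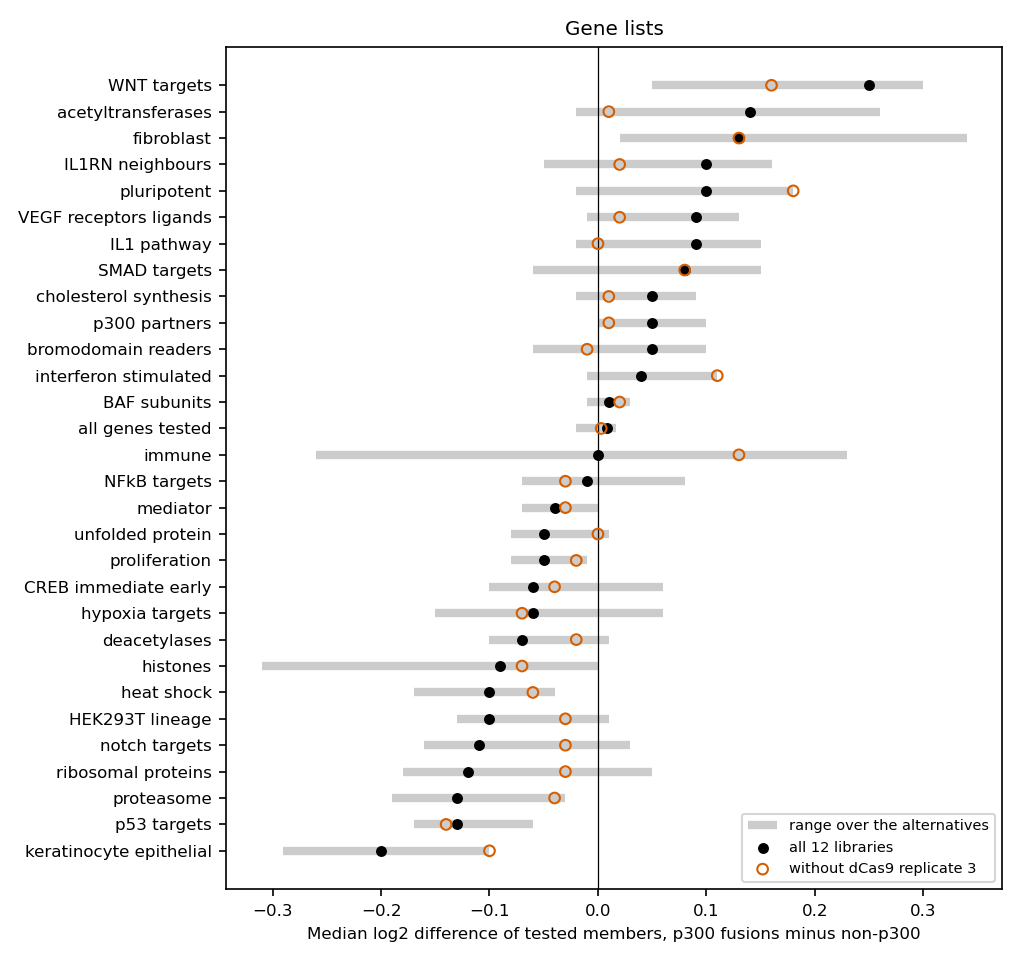
Median log2 difference between the p300 fusions and the non-p300 proteins (horizontal axis) of the tested members of each gene list, with 1 row a list; black points are all 12 libraries, open orange circles leave out dCas9 replicate 3, and grey bars span the alternatives. The ribosomal protein and proteasome medians move from -0.12 and -0.13 to -0.03 and -0.04 without that library, while the p53 median stays at -0.13 to -0.14.

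The remaining lists described growth and identity. Of 24 proliferation genes 5 lay above 0, around a median of -0.05 (range -0.08 to -0.01), with the cyclin gene CCNB2 at -0.15 ± 0.09 and CDC6, which licenses replication origins, at -0.13 ± 0.08. Of 17 cholesterol synthesis genes 11 lay above 0, around a median of 0.05 (range -0.02, in the CV41 libraries without dCas9 replicate 3, to 0.09), with MVD at -0.30 ± 0.21. Of 11 histone genes 1 lay above 0, around a median of -0.09 (range -0.31, without a filter, to 0.00), with H4C3 at -0.62 ± 0.35 and H2AC6 at -0.63 ± 0.41, both between 0.773 and 4.78 CPM in every library. H4C2, a histone H4 gene outside the list and named after its values were seen, had the largest difference of any tested gene in either direction, at -2.09 ± 0.72, with levels from 0 to 3.59 CPM, and the groups overlapped (adjusted p = 0.874, edgeR). The HEK293T lineage markers had 4 of 12 above 0 and a median of -0.10 (range -0.13 to 0.01, the last without dCas9 replicate 3 and D1399Y replicate 2), with GATA3 at -0.36 ± 0.20 and KRT8 at -0.25 ± 0.17.

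The summed levels of markers of other cell types overlapped between the p300 libraries and the others. The summed level of 8 endothelial markers other than KDR was 2.90 to 4.53 CPM in the p300 libraries and 1.20 to 6.30 CPM in the others, and 0 of them passed the filter. Fibroblast markers summed to 30.3 to 39.7 CPM against 26.4 to 41.1 CPM, with THY1 and FAP at 0 counts. Of their 4 tested members 3 lay above 0, from COL3A1 at log2 -0.01 to COL6A3 at 0.85 ± 0.45. Epithelial and keratinocyte markers summed to 42.1 to 59.4 CPM against 44.0 to 61.8 CPM, with KRT5, KRT14, KRT1 and IVL at 0 counts. Of their 4 tested members 1 lay above 0, CDH1 at 0.19, and EPCAM was lowest at -0.42 ± 0.27. Immune markers summed to 12.1 to 20.9 CPM against 12.4 to 22.2 CPM, with CD3E and HBB at 0 counts and 1 of 3 tested members above 0: CD68 stood at 0.55 ± 0.23 and LYZ at -0.61 ± 0.20. Pluripotency markers summed to 136 to 178 CPM against 88.9 to 168 CPM, with 4 of 5 tested members above 0 and a median of 0.10. LIN28B, an RNA-binding protein, stood at 0.12 ± 0.16 and held most of that sum, at a mean of 133 CPM in the p300 libraries, and SOX2, the 1 member below 0, stood at -0.20 ± 0.20.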

How the data were processed

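The authors' deposited values are raw counts of reads per RefSeq row, in 1 table for each of the 12 libraries. The submitters' processing notes list the build hg19 and, as tools, DESeq2 1.6.2, R 3.1.2, Bowtie2, SAMtools and CASAVA, without their roles; how shared reads, strand and duplicates were handled was not stated. The deposited counts cover 40709 RefSeq rows, which were named through RefSeq and GENCODE tables of GRCh38 and summed to 24395 features (859 rows kept their identifier, with 1.07% of reads). Differences were fitted with edgeR 4.0.16 in R 4.3.3 over all 12 libraries: group means, TMM, filterByExpr (minimum count 10, minimum total 15), the quasi-likelihood test, two-sided, Benjamini-Hochberg over 14613 genes, threshold 0.05. Exact permutation tests used log2 CPM with a prior count of 2. Alternatives used DESeq2 1.42.0 and limma 3.58.1. Scripts ran in Python 3.11.15 and were tested on simulated data (9 false calls among 189).

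The members and gene lists were chosen with earlier results of these data known. Named genes are EP300, IL1RN, genes past the threshold, the 10 of smallest p each way that did not pass, genes without overlap and a log2 difference of at least 1, and at most 3 members of each of 30 lists (499 symbols, 496 in the files, 430 tested). Intervals cover the spread between libraries; without molecular identifiers, reads need not be separate molecules.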

Additional observations from a re-analysis of the deposited data

Results flagged for a closer look

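In 44 sets of 6 libraries (EP300, IL1RN, the 19 other leading genes and the total count, in the p300 and the other libraries), 4 held a library far from the rest, where chance gives about 1 in 20, or 2.2. EP300 stood at 51.9 CPM in dCas9 replicate 3, below the other 5 non-p300 libraries. EMID1 stood at 27.8 CPM in the same library, above the other 5. The total count of that library, 2442960, lay below the others without p300, and the total of core replicate 2, 5154627, lay above the other p300 libraries. IL1RN differed between the fusions, by 3.42 on the log2 scale for core minus D1399Y (adjusted p = 2.96e-05, edgeR), so its mean over both stands for neither of them.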

How the results depend on the processing

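The comparison of the p300 fusions with the non-p300 proteins placed 1 gene past the threshold in 27 of its 29 alternatives, EP300 or its RefSeq row each time; the CV41 libraries alone gave 0 (EP300 at 1.71) and DESeq2 gave 2 (IL1RN at 1.00 was the other). Leaving out 1 library kept the count at 1, with EP300 from 1.62 to 1.93 in the fit and from 1.62 to 1.92 in the exact test. CREBBP reversed to -0.06 in the CV41 libraries without dCas9 replicate 3, a setting added after seeing the data. The fit with a replicate block gave 1 gene for the main comparison (EP300 at 1.81) and 1 for dCas9-VP64 against dCas9. At an unadjusted p under 0.05 it placed 552 genes for the main comparison, against 330 in the main fit. The main fit has no replicate term, so its p-values leave out whatever replicates of the same number share. Deviations of libraries with the same number correlated above 0.1 in 14 of 18 pairs, and each of the 12 libraries correlated best with its own number, a hint from the data that numbers share something the labels do not state. Pairing was taken to hold only where every pair exceeded 0.1. Over the 4 groups of the main comparison that was not so (lowest -0.176, for dCas9 against the core in replicate 3). It was so for core against dCas9-VP64 and for D1399Y against dCas9, where the block left the calls at 1 and 0, with 499 and 1569 genes at an unadjusted p under 0.05.

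The pairwise counts moved more, from 1 gene each for the core comparisons and 0 for the others; the cause was not tested. For core against D1399Y the count was 4 in DESeq2, 7 in limma-voom with quality weights and 4 on single RefSeq rows (several rows of IL1RN), and 1 to 5 on leaving out 1 library. Against dCas9 the core count was 3 with the 1 CPM filter (which keeps more genes), 3 without a filter, 4 in DESeq2, 6 on single RefSeq rows and 2 with RLE or upper-quartile factors, in limma-voom with or without quality weights, with length and GC offsets and in both added settings without dCas9 replicate 3, and 1 to 2 on leaving out 1 library. Against dCas9-VP64 the core count was 0 in the CV41 libraries and with the pool as a term, 2 with upper-quartile factors, 3 with length and GC offsets, without a filter and in the CV41 libraries without dCas9 replicate 3, 4 without dCas9 replicate 3 and D1399Y replicate 2 (also added after seeing the data), 5 in DESeq2 and on single RefSeq rows, 15 in limma-voom with quality weights, and 0 to 5 on leaving out 1 library, the 5 without dCas9 replicate 3. On single RefSeq rows these counts are of rows and not of genes. The rows called for the core were of IL1RN alone against D1399Y. They were of IL1RN, EP300 and KDR against dCas9, and of IL1RN and KDR against dCas9-VP64. D1399Y against dCas9 gave 1 gene under 11 alternatives and 0 to 1 on leaving out 1 library. D1399Y against dCas9-VP64 gave 2 in DESeq2, without a filter and in limma-voom with quality weights, 1 under 4 others, and 0 to 2 on leaving out 1 library. dCas9-VP64 against dCas9 gave 1 under 6 alternatives, the replicate block among them, and 0 to 1 on leaving out 1 library. Totals of 2442960 to 5154627 counts limit genes below 5 CPM most.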
